A study of Mus musculus with 6 samples.

Results

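The peaks described here are the open chromatin regions that the authors' deposited table assigns to genes of the Wnt, Frizzled (Fzd), BMP, TGF-beta, SMAD, FGF and FGF receptor families. They were taken by gene symbol alone: every symbol that starts with Wnt, Fzd, Bmp, Tgfb, Smad, Fgf or Fgfr and goes on with a number, apart from 4 genes that the rule leaves out and that are not analysed here. This gave 334 peaks at 67 genes, out of 65535 listed peaks at 17625 genes. Of the 76 coding genes in the RefSeq annotation that the rule covers, 65 had a listed peak. The assay was ATAC-seq, which reads out where the Tn5 transposase can reach the DNA of nuclei. The groups were 3 libraries of Lmna KO and 3 of control (genotype WT) mouse embryonic stem cells. Lmna encodes lamins A and C of the nuclear lamina. Both groups were E14 cells with the transgene Tg(Nkx2-5-EmGFP), grown in serum and leukemia inhibitory factor on mitotically arrested mouse embryonic fibroblasts. The fibroblasts were reduced by preplating, per the labels' protocols. The labels do not say how many knockout clones were used or whether the libraries of a group were separate cultures, so the deposited statistics rest on a spread between libraries that may be only technical.

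Wnt proteins are secreted lipid-modified ligands that bind Frizzled receptors and LRP co-receptors. In the canonical branch they stabilise beta-catenin, which acts with TCF/LEF factors. BMP and TGF-beta ligands bind serine/threonine kinase receptors. BMP receptors signal through SMAD1, SMAD5 and SMAD9, TGF-beta receptors through SMAD2 and SMAD3, and SMAD4 is the shared partner. FGF ligands bind receptor tyrosine kinases (FGFR) that activate the ERK pathway. In mouse embryonic stem cells Wnt and BMP signals help to hold self-renewal, while FGF and ERK signalling favours exit from the naive state.

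The table gives, per peak, the log2 concentration (a mean read level on a log2 scale) of each group, the log2 fold (Lmna KO minus control) and the FDR. It holds group means only, so no spread between libraries can be given, and the depth per library is unknown. A peak with an FDR of 0.05 or less is called gained where its fold is positive and lost where it is negative. The symbol is that of the nearest annotated transcription start site (TSS). It does not show that a peak acts on that gene: at least 13 of the 334 peaks lay inside a different gene, by the annotation's gene IDs. The label check came first: in the deposited table the Lmna peak chr3:88492472-88493370 had 2.0 in Lmna KO cells against 6.27 in control cells (log2 fold -4.27, FDR 4.44e-20). Of 12 stem cell markers, 11 had a listed promoter peak, with a median log2 concentration of 6.87 in Lmna KO and 6.1 in control cells. For 12 fibroblast markers, which stand for the feeder layer, 8 had a listed promoter peak, with medians of 4.88 in Lmna KO and 5.03 in control cells. Of the listed peaks at stem cell markers, 26 of 74 were gained (35.1%) and 2 lost (2.7%). At fibroblast markers 2 of 31 were gained (6.45%) and 1 lost (3.23%). At primitive endoderm markers 8 of 49 were gained (16.3%) and 2 lost (4.08%). Over all listed peaks 16.1% were gained and 2.26% lost. The strongest promoter peak was gained at 6 of 11 stem cell, 0 of 8 fibroblast and 1 of 8 primitive endoderm markers, and a weaker promoter peak of the fibroblast marker Prrx1 was lost (log2 fold -2.23, FDR 0.0416). Of all listed promoter peaks, weaker ones of a gene included, 13.1% were gained and 1.28% lost. The part of these shifts in the results on signalling genes was not tested.

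The promoter sequences of 5 genes are shown because the deposited table called a peak at their promoter gained and the RefSeq window (GRCm38.p6, the assembly of mm10; 250 bases before to 50 after the start) lies wholly inside that peak. Capitals mark the motifs searched on both strands: CTTTGA (TCF/LEF core), CAGAC (SMAD element core) and GGCGCC (GC-rich SMAD element). They did not overlap in these windows. A match is a string of letters, not a shown binding site.
Fgf14 (chr14:124192497-124192796, minus strand): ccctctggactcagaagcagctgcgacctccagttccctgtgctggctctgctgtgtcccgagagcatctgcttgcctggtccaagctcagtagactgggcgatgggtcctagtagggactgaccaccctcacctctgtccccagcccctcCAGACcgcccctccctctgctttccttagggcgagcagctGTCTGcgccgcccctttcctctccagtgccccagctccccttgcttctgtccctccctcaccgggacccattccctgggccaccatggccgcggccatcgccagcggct
Bmp4 (chr14:46390620-46390919, minus strand): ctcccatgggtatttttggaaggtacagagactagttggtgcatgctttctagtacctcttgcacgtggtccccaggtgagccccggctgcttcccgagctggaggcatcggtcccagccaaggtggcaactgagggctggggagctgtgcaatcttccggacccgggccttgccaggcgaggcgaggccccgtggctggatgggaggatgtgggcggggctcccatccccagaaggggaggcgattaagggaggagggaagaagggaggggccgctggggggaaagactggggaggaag
Fzd5 (chr1:64737701-64738000, minus strand): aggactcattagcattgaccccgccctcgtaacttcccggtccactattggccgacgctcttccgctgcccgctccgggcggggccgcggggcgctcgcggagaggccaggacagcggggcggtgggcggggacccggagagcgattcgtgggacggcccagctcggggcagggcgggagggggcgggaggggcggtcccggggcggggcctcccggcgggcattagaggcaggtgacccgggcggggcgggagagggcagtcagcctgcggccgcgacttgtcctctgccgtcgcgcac
Bmp8a (chr4:123343203-123343502, minus strand): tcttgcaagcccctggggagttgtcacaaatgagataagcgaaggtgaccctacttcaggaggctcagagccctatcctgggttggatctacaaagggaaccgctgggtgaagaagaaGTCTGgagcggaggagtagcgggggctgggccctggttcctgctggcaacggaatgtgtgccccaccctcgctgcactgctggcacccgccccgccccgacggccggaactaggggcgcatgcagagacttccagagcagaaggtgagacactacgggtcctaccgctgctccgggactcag
Fgf3 (chr7:144838362-144838661, plus strand): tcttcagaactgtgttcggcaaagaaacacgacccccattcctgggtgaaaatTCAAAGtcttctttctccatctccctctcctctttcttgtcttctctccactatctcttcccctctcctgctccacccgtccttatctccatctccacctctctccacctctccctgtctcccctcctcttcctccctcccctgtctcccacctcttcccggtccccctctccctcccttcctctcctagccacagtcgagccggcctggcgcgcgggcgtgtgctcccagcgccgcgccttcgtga
The windows of all 5 genes were rich in G and C, from 59.3% at Fgf3 to 75.7% at Fzd5, against a median of 52.7% over all 32851 windows. They held 12 to 38 CpG dinucleotides, the most at Fzd5, against a median of 7. CAGAC was found 2 times at Fgf14 and 1 time at Bmp8a, and CTTTGA 1 time at Fgf3, while GGCGCC was in none of the 5. Over all windows 49.6% held CAGAC, 16% CTTTGA and 11.9% GGCGCC. Among 56 windows of 44 member genes, 23 held CAGAC, 5 CTTTGA and 16 GGCGCC.

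Of the 334 peaks, 80 were gained and 7 lost in Lmna KO cells by the deposited FDR, and 247 did not pass. The gained share was 24.0%, against 16.1% of all listed peaks, and the lost share 2.1%, against 2.26%. Fgf14, on distal chromosome 14, held 52 of the 80 gained peaks. Without chromosome 14, 24 of 239 member peaks were gained (10%, against 11.8% of all listed peaks there) and 7 were lost (2.93%, against 2.42%). Counted by gene, 19 of 67 had a gained peak (28.4%, against 28.8% of all genes with a listed peak) and 7 had a lost one (10.4%, against 7.19%). No gene had one of each. Outside chromosome 14 the median log2 fold of member peaks was 0.43, against 0.44 over all listed peaks.

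The gained share differed between families, beside 16.1% of all listed peaks and 11.8% of those outside chromosome 14. FGF ligands, a name used here for all Fgf genes, had 61 gained of 132 listed peaks (46.2%) and BMP genes 12 of 44 (27.3%). Wnt and Frizzled genes had 6 of 93 (6.45%) and FGF receptors 1 of 27 (3.7%), and among the 28 SMAD and 10 TGF-beta peaks 0 were gained. Lost peaks numbered 3 at Wnt and Frizzled genes (3.23%) and 1 each at BMP (2.27%), SMAD (3.57%), FGF ligand (0.758%) and FGF receptor genes (3.7%). The lost share of all listed peaks was 2.26%. Without Fgf14 the FGF ligands had 9 of 55 (16.4%). The products of Fgf11 to Fgf14 are not secreted, and the Fgf genes without them had 6 of 45 (13.3%), with a median log2 fold of 0.34. Without Bmp2k, which encodes a kinase and no ligand, the BMP genes had 9 of 36 (25%), with a median of 0.52. The differences between families were not tested, since peaks of a gene share a locus and peaks are no replicates of a condition. Peak strength differed too, with a median log2 concentration from 3.68 at FGF receptors to 4.5 at BMP genes. Over all listed peaks outside chromosome 14, the gained share was 3.05% below a concentration of 3 and 21.4% at 5 or more.

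**Figure D1:**
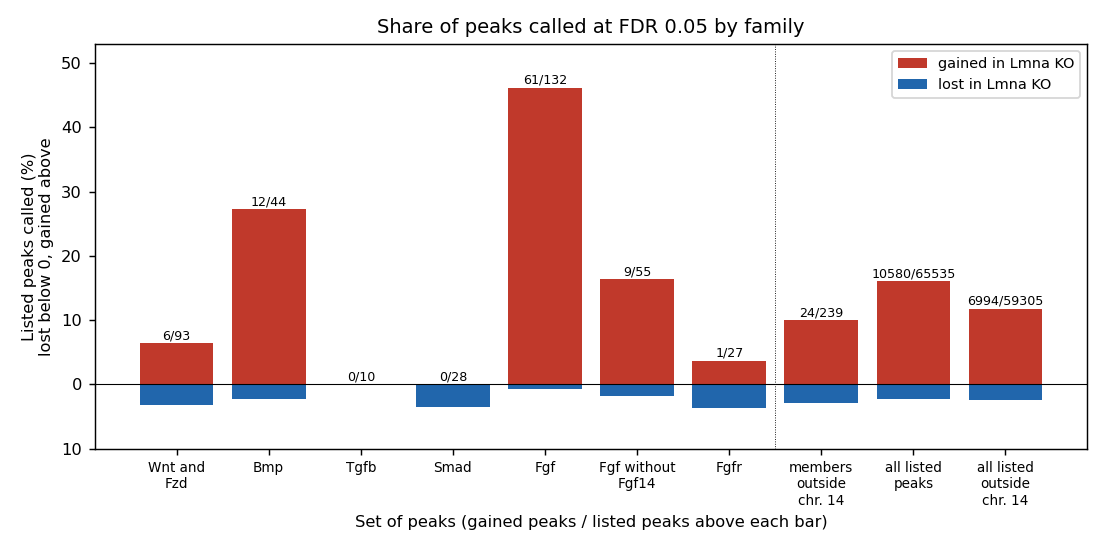
Percent of listed peaks called at an FDR of 0.05, gained in Lmna KO above 0 and lost below it, for each gene family, for the members outside chromosome 14 and for all listed peaks. FGF ligands stand highest at 46.2% gained and come to 16.4% without Fgf14, BMP genes reach 27.3%, and Tgfb and Smad have 0 gained peaks.

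By fold, the place of the FGF ligands rested on Fgf14. Median log2 folds were 1.18 for FGF ligands, 0.67 for BMP, 0.47 for SMAD, 0.42 for TGF-beta, 0.41 for Wnt and Frizzled and 0.29 for FGF receptors, against 0.49 for all listed peaks. Without Fgf14 the FGF ligands had 0.35, below BMP, SMAD, TGF-beta and Wnt and Frizzled genes. The zero of these folds bears on every gain. Strong listed peaks outside chromosome 14, those with a log2 concentration of at least 5, had a median log2 fold of 0.43 (16608 peaks), so a typical listed strong site had a positive fold. Each peak was therefore also tested around 0.43, with the standard error that its deposited p implies under a normal test. That left 30 gained and 19 lost member peaks, which is 8.98% and 5.69% of the 334, against 5.02% and 7.16% of all listed peaks. Of the 80 gained peaks 30 passed again, 25 of them at Fgf14, and of the 28 outside Fgf14 5 did: 1 each at Bmp2, Bmp6, Bmp7, Fgf1 and Fzd10os. All 7 lost peaks passed again, which a positive offset cannot prevent. The 0.43 comes from listed peaks only. Unlisted peaks have larger p-values, so the median of all strong peaks may lie nearer 0. The same offset was used for weak peaks, though listed peaks outside chromosome 14 below a log2 concentration of 3 had a median of -0.92. Losses seen only in this retest rest on that offset.

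**Figure D2:**
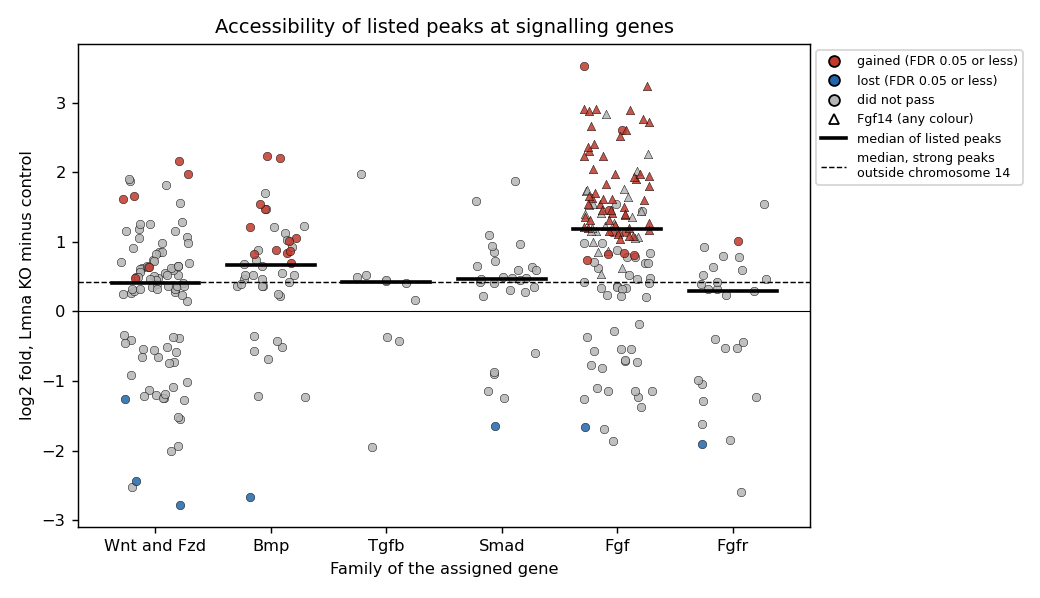
Log2 fold (Lmna KO minus control) of each of the 334 listed peaks by gene family, red where gained, blue where lost and grey where the peak did not pass, with triangles for Fgf14 and black bars for the median. The Fgf14 triangles lie between 0.54 and 3.24, all above the dashed line at 0.43, while the medians of Wnt and Frizzled, Tgfb and Smad lie close to it.

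Wnt ligands were called at 4 of 15 genes in the deposited table. Wnt3a, a canonical Wnt ligand, had 3.62 in Lmna KO and 1.46 in control cells at chr11:59293730-59294016, 2978 bases before its TSS (log2 fold 2.17, FDR 0.0332). Its strongest promoter peak did not pass, at 5.31 in Lmna KO and 4.68 in control cells (FDR 0.171). Wnt11, a ligand known mainly from beta-catenin-independent signalling, had 4.04 in Lmna KO and 2.38 in control cells 19.3 kb from its TSS (log2 fold 1.66, FDR 0.0377). Losses were at weak sites. Wnt16, a ligand known for its role in bone, had 0.78 in Lmna KO and 3.56 in control cells at chr6:22280280-22280628 (log2 fold -2.78, FDR 0.0116). Wnt8a, an early embryonic ligand, had 0.65 in Lmna KO and 3.09 in control cells at a site 6.44 kb from its TSS (log2 fold -2.44, FDR 0.0358). All 4 of its listed peaks had a negative fold, at a median log2 concentration of 2.71. Below 3, 33.6% of all listed peaks outside chromosome 14 had a positive fold. The 11 Wnt genes with no called peak were Wnt2b, Wnt5a, Wnt5b, Wnt6, Wnt7a, Wnt7b, Wnt8b, Wnt9a, Wnt9b, Wnt10a and Wnt10b. Tested around 0.43, neither Wnt gain passed, while 6 Wnt peaks were lost, among them 2 promoter peaks of Wnt5b. The stronger of these had a deposited concentration of 5.57 in Lmna KO and 5.98 in control cells (log2 fold -0.41 as deposited, FDR 0.316, and -0.84 after centring, adjusted p = 0.0276).

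Frizzled receptors gained at Fzd5 and Fzd7 and lost at Fzd8. Fzd5, whose promoter is printed above, had 7.43 in Lmna KO and 6.95 in control cells there (deposited log2 fold 0.48, FDR 0.0191), a change of 1.39-fold that stood at 0.05 once centred. A peak in its 3' UTR had a deposited log2 fold of 0.64 (FDR 0.0408). Fzd7, a main Wnt receptor of pluripotent cells, had 10 listed peaks. One of them, 6.64 kb from its TSS, had 3.51 in Lmna KO and 1.55 in control cells (log2 fold 1.97, FDR 0.043). The Fzd7 promoter missed the limit (6.55 in Lmna KO, 6.16 in control cells, FDR 0.174). At Fzd8 a 3' UTR peak had 3.42 in Lmna KO and 4.68 in control cells (log2 fold -1.26, FDR 0.0351). Fzd10os, a noncoding gene on the strand opposite Fzd10, gained chr5:128578984-128579742, with 5.59 in Lmna KO and 3.98 in control cells (log2 fold 1.61, FDR 3.99e-05). This gain also passed around 0.43, where 2 weak Fzd7 peaks were lost. Fzd1, Fzd2, Fzd3, Fzd4, Fzd6 and Fzd9 had no called peak.

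BMP ligands were gained at 5 genes and lost at 1. Bmp4, the ligand that supports self-renewal together with leukemia inhibitory factor, had 6.95 in Lmna KO and 6.13 in control cells at its promoter, chr14:46390263-46392301 (deposited log2 fold 0.83, FDR 0.00174). A second site 6.54 kb from its TSS, chr14:46397214-46400237, had 6.79 in Lmna KO and 5.77 in control cells (log2 fold 1.02, FDR 0.000172). All 6 of its listed peaks had a positive fold. Bmp4 lies on chromosome 14 before 75 Mb, where 12.5% of the listed peaks were gained, not in the distal part where 70.6% were. Bmp7, a ligand with broad roles in organ formation, gained 3 of 9 peaks. They were its promoter (6.48 in Lmna KO, 5.61 in control cells, log2 fold 0.87, FDR 0.00151), an intron peak 67.5 kb into the gene (0.88, FDR 0.00827) and chr2:172827379-172828617, 111 kb away (6.06 in Lmna KO, 4.85 in control cells, 1.21, FDR 0.000337).

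Bmp2, a close relative of Bmp4, gained sites 200 kb and 96.3 kb before its TSS (deposited log2 folds 1.47 and 2.21, FDR 0.00059 and 0.0255), while its promoter peak, 1774 bases before the TSS, did not pass (0.36, FDR 0.603). Bmp6 gained chr13:38312184-38313006, 32.1 kb upstream, with 4.98 in Lmna KO and 2.74 in control cells (log2 fold 2.24, FDR 8.86e-05). The promoter of Bmp8a had 6.68 in Lmna KO and 6.0 in control cells (0.69, FDR 0.0257). Bmp3, which antagonises other BMPs, lost a site 82.9 kb away inside Cfap299, with 0.95 in Lmna KO and 3.62 in control cells (log2 fold -2.67, FDR 0.0079). Bmp1, a procollagen protease despite its name, Bmp5 and Bmp8b had no called peak. Bmp2k, the kinase, gained 3 of 8 peaks (largest log2 fold 1.54, FDR 0.00287). Around 0.43, 1 gained peak each passed at Bmp2 (centred log2 fold 1.04), Bmp6 (1.81) and Bmp7 (0.78), and no peak of Bmp4 did (0.59 and 0.4).

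**Figure D3:**
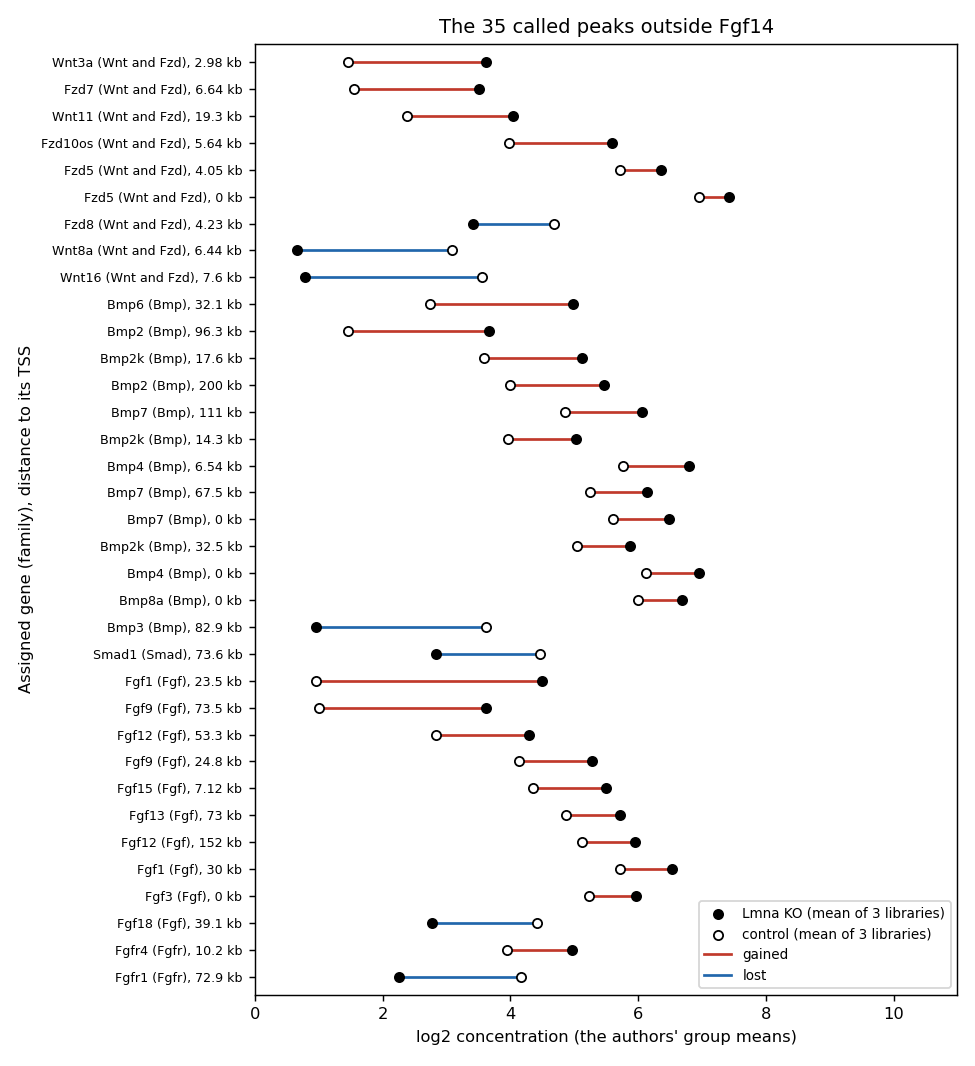
Mean log2 concentration in Lmna KO (filled) and control (open) cells at the 35 called peaks outside Fgf14, 1 row per peak with the assigned gene, its family and the distance to its TSS. Red lines join gained and blue lines lost peaks. In control cells the 7 lost peaks have at most 4.68, while gained peaks reach 6.95.

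TGF-beta ligands and SMADs were almost without calls. Of 10 listed peaks of Tgfb1, Tgfb2, Tgfb3 and Tgfb1i1 (a focal adhesion protein, not a ligand), 0 passed. The nearest was a site inside Ttll5 assigned to Tgfb3, with 1.51 in Lmna KO and 3.46 in control cells (log2 fold -1.95, FDR 0.0505). Among SMADs the single call was a loss at Smad1, which carries the BMP signal. That site, chr8:79473147-79473803, lies 73.6 kb upstream and had 2.83 in Lmna KO and 4.47 in control cells (log2 fold -1.64, FDR 0.0252). The promoter of Smad1 had 6.31 in Lmna KO and 5.96 in control cells and did not pass (0.35, FDR 0.316). The inhibitory Smad6 was the strong promoter nearest to the limit, at 6.93 in Lmna KO and 6.47 in control cells (0.45, FDR 0.0666). Smad2, Smad3, Smad4, Smad5, Smad7 and Smad9 had no called peak either. The 28 SMAD peaks had log2 folds from -1.64 to 1.88, and 22 of them were positive.

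Fgf14 held 77 of the 132 FGF ligand peaks. With Fgf11, Fgf12 and Fgf13 it makes up the subfamily that is not secreted and binds voltage-gated sodium channels instead of FGF receptors. All 77 peaks had a positive deposited log2 fold, from 0.54 to 3.24 (median 1.54), and 52 passed. They span 685.8 kb near the distal end of chromosome 14, across a gene of 699.2 kb with 2 deposited start sites 484.2 kb apart. At the downstream start, the peak chr14:124191874-124193043, which also covers the RefSeq window printed above, had 7.31 in Lmna KO and 6.17 in control cells (log2 fold 1.14, FDR 1.49e-08). Near the upstream start, chr14:124674804-124676281 had 6.92 in Lmna KO and 5.75 in control cells (1.17, FDR 1.07e-05). The smallest FDR was at an intron peak, chr14:124414531-124416290, with 6.81 in Lmna KO and 4.14 in control cells (2.67, FDR 3.29e-21). Upstream of the gene, 10 of 14 listed peaks were gained, among them chr14:124779550-124780410 with 5.75 in Lmna KO and 2.87 in control cells (2.88, FDR 1.59e-10).

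The gain at Fgf14 was shared by the region around it. From 10 Mb before the first Fgf14 peak to the end of the chromosome, 639 of 905 other listed peaks were gained (70.6%). Their median log2 fold was 1.67, against 67.5% gained and a median of 1.54 at Fgf14. Over all of chromosome 14 beyond 75 Mb, 70.6% of listed peaks were gained, with a median of 1.68. More copies of the DNA and more open chromatin per copy cannot be told apart from these group means.

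**Figure D4:**
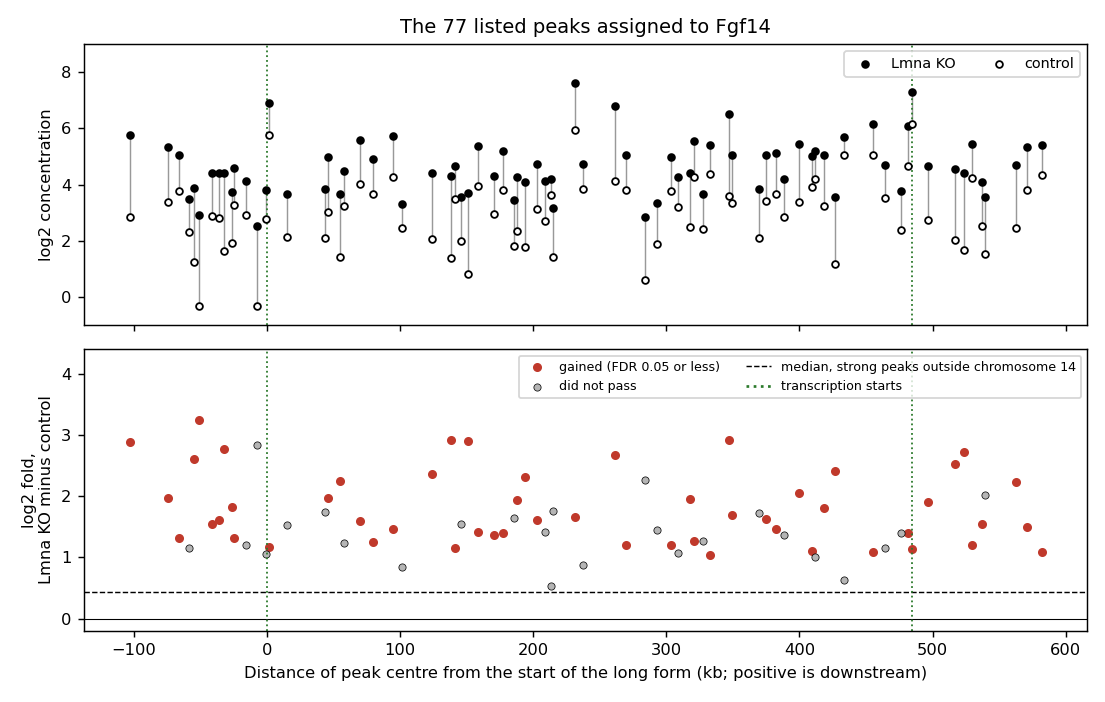
The 77 listed peaks assigned to Fgf14 by distance from the start of the long form in kb, with the log2 concentration of Lmna KO and control cells above and the log2 fold below. Every Lmna KO point lies above its control point, and every fold lies above the dashed median of 0.43 for strong peaks outside chromosome 14.

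The other FGF ligands were called at 7 genes. Fgf1, a ligand of all FGF receptors, had the largest fold of any member. A site inside Arhgap26, 23.5 kb from the Fgf1 TSS, had 4.49 in Lmna KO and 0.96 in control cells (log2 fold 3.53, FDR 2.34e-05). A stronger site in the same gene had 6.53 in Lmna KO and 5.72 in control cells (0.81, FDR 0.00517). Fgf9, a ligand needed for testis and lung formation, gained 2 of 5 peaks, 73.5 kb (2.61, FDR 0.0112) and 24.8 kb (1.14, FDR 0.0156) from its TSS. It lies on chromosome 14 before 75 Mb. Fgf15, which signals from gut to liver in bile acid control, gained chr7:144887655-144889409, with 5.49 in Lmna KO and 4.35 in control cells (1.14, FDR 0.006). The promoter of Fgf3, a ligand of inner ear formation, had 5.97 in Lmna KO and 5.23 in control cells (0.74, FDR 0.0432). Of the other intracellular members, Fgf12 gained 2 of 7 peaks (0.83, FDR 0.0155, and 1.46, FDR 0.0457) and Fgf13 1 of 2 (0.84, FDR 0.0397), while the single peak of Fgf11 did not pass (-0.28, FDR 0.632). The single loss was at Fgf18, a ligand of skeletal growth, 39.1 kb from its TSS, with 2.77 in Lmna KO and 4.42 in control cells (-1.66, FDR 0.00937).

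Fgf2, Fgf7, Fgf10, Fgf20, Fgf22 and Fgf23 had no called peak. Fgf10, a ligand of lung and limb budding, had 14 listed peaks, 4 with a positive fold, and a median log2 fold of -1.14. Its smallest FDR was 0.0577, at an intron peak with 5.07 in Lmna KO and 4.08 in control cells. The median log2 concentration of the Fgf10 peaks was 2.64. Listed peaks outside chromosome 14 below 3 had a median log2 fold of -0.92, with 33.6% positive. Around 0.43 the very strong Fgf18 promoter was lost: it had 7.78 in Lmna KO and 7.95 in control cells (log2 fold -0.18 as deposited, FDR 0.457, and -0.61 after centring, adjusted p = 0.00303). The Fgf20 promoter was lost too, with 5.52 in Lmna KO and 5.89 in control cells (-0.37 as deposited, FDR 0.367, and -0.8 after centring, adjusted p = 0.0352). Of the FGF ligand gains outside Fgf14, the larger one of Fgf1 passed (3.1 after centring) and the remaining 8 did not.

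FGF receptors had 1 gained and 1 lost peak. Fgfr4, the receptor for Fgf15, gained an exon peak 10.2 kb from its TSS, with 4.96 in Lmna KO and 3.94 in control cells (deposited log2 fold 1.02, FDR 0.0474). Fgfr1, a main FGF receptor of stem cells, lost chr8:25440082-25440778, 72.9 kb upstream, with 2.26 in Lmna KO and 4.16 in control cells (-1.9, FDR 0.0141). Of its 10 listed peaks 2 had a positive fold, the promoter among them (6.24 in Lmna KO, 6.01 in control cells, 0.23, FDR 0.521). The 10 had a median log2 concentration of 3.24. Positive folds made up 33.6% of listed peaks outside chromosome 14 below 3 and 61.2% from 3 to 4. Around 0.43, 3 Fgfr1 peaks were lost and the Fgfr4 gain did not pass. Fgfr2 and Fgfr3 had no called peak, nor had Fgfr1op, which encodes a centrosomal protein and no receptor.

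Member promoters were gained at a share near that of all listed promoter peaks. Of 75 member peaks within 3000 bases of a TSS, 9 were gained (12.0%, against 13.1% of all listed promoter peaks). Lost ones numbered 0 (against 1.28%). The 75 had a median log2 fold of 0.45, against 0.41 for all listed promoter peaks. The 9 gained peaks were 3 at Fgf14 and 1 each at Bmp4, Bmp7, Bmp8a, Fzd5, Wnt3a and Fgf3. The strongest listed promoter peak of 54 genes had a median log2 fold of 0.36, with 47 positive and 7 negative. By family these medians ran from 0.3 (TGF-beta) and 0.32 (FGF ligands) over 0.33 (FGF receptors) and 0.37 (Wnt and Frizzled) to 0.44 (BMP) and 0.45 (SMAD). The largest value, 1.88 at Smad4, belongs to a weak peak that did not pass (3.29 in Lmna KO, 1.42 in control cells, FDR 0.0848).

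**Figure D5:**
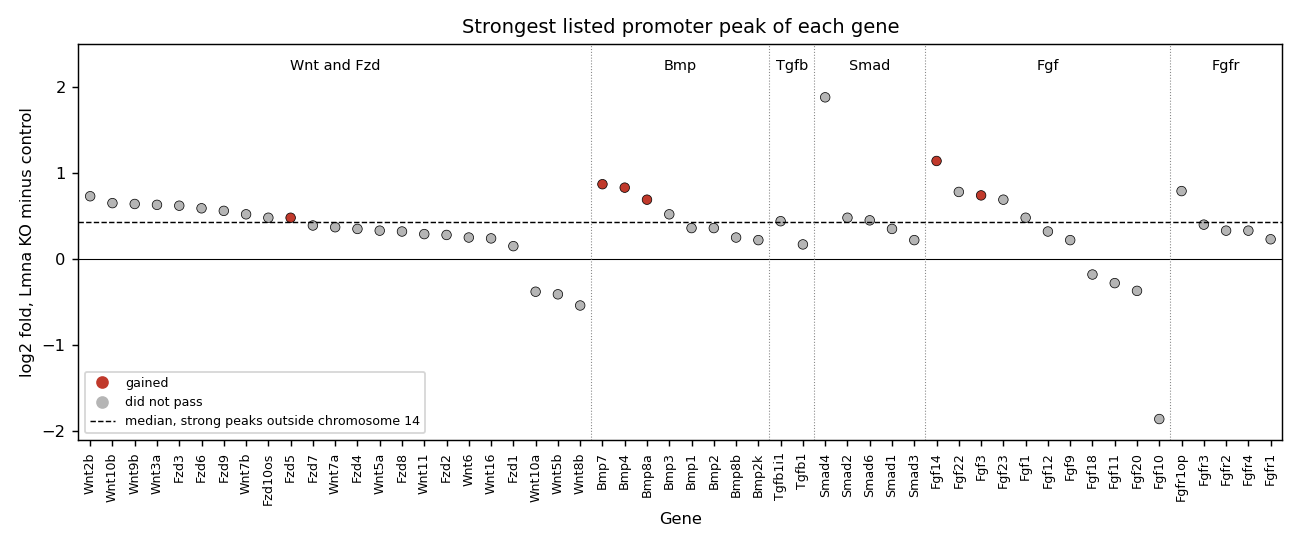
Log2 fold (Lmna KO minus control) of the strongest listed promoter peak of each of 54 genes, grouped by family, red where gained and grey where it did not pass. Most values lie between 0 and 0.9, around the dashed median of 0.43 for strong peaks outside chromosome 14, and the gained ones are Fzd5, Bmp7, Bmp4, Bmp8a, Fgf14 and Fgf3.

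Outside Fgf14, gained and lost peaks had near equal medians in control cells, though gained ones reached 6.95 there and lost ones at most 4.68. Their medians in Lmna KO cells differ by the definition of a gain and a loss. Outside Fgf14, the 28 gained peaks had a median log2 concentration of 5.54 in Lmna KO and 4.24 in control cells, and log2 folds from 0.48 to 3.53. The 7 lost peaks had medians of 2.26 in Lmna KO and 4.16 in control cells, and log2 folds from -2.78 to -1.26. Outside chromosome 14, all 13 called members with a mean concentration of 5 or more were gained (13 of 74, or 17.6%). That mean is taken over both groups, so the fold itself moves it. Below 3, 3 were gained and 3 lost of 58. The same lean ran through all listed peaks there, with 21.4% gained and 0.909% lost at 5 or more and 3.05% and 3.81% below 3. Outside Fgf14, 12 of the 28 gained peaks were intergenic, 7 intronic and 6 at promoters, and 4 of the 7 lost peaks were intergenic. With Fgf14 included, a further 27 member peaks had an FDR above 0.05 and up to 0.1, with 21 positive folds. Of the 27, 9 were at Fgf14, all with a positive fold. The gained peaks nearest to the limit were 2 of Fgf14 (FDR 0.0489 and 0.0482) and the one of Fgfr4 (0.0474), and the nearest that missed it were at Tgfb3 (0.0505), Fgf14 (0.0506) and Bmp7 (0.0571).

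Other genes of the pathways were taken from textbook lists of receptors, inhibitors, transducers and targets, and up to 3 genes of smallest FDR in each direction are named. In the deposited table, inhibitors of BMP and TGF-beta signalling had a gained peak at 9 of 17 genes and a lost one at 0, and a median log2 fold of 0.66 over 71 listed peaks. They included Bambi, a decoy receptor (log2 fold 1.57, FDR 3.19e-05), Chrd, the BMP antagonist chordin (1.37, FDR 0.000534), and the promoter of Tob1, a transcriptional corepressor (0.72, FDR 0.00205). Target genes of the same pathways had a gained peak at 6 of 9 genes. Id1, the classic BMP target, gained a site 7851 bases upstream, with 6.6 in Lmna KO and 5.46 in control cells (1.14, FDR 3.17e-05). Klf10 (1.99, FDR 7.63e-06) and Tgif1 (0.64, FDR 0.00336) gained too. The receptors were split, with 3 of 12 genes gained and 3 lost and a median log2 fold of -0.46. Their 15 promoter peaks had a median of 0.38 with 0 gained and 0 lost, and their 47 other peaks had -0.75. Receptor peaks were also weaker, with a median log2 concentration of 3.66 against 4.91 at the inhibitors. The part of peak strength in this difference was not tested. Tgfbr3, a co-receptor, held a peak of each kind (1.99, FDR 7.18e-05, and -2.58, FDR 0.0138). The type I receptors Acvrl1 (1.06, FDR 0.0137) and Acvr1b (0.99, FDR 0.0156) gained, while Acvr2a (-1.67, FDR 0.0213) and Bmpr1b (-2.3, FDR 0.0365) lost.

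For Wnt signalling, the deposited table had a gained peak at 5 of 16 genes for co-receptors and secretion and a lost one at 1. Gains were at the co-receptor Lrp6 (log2 fold 1.33, FDR 0.00187), the R-spondin receptor Lgr4 (0.94, FDR 0.00179) and the Wnt acylase Porcn (0.81, FDR 0.00791), and the loss at Wls, which carries Wnts to the cell surface (-1.44, FDR 0.00455). Inhibitors had a gain at 4 and a loss at 0 of 12 genes. Kremen1, a receptor for Dkk inhibitors (2.54, FDR 0.00191), Notum, which removes the Wnt lipid (1.26, FDR 0.00456), and Dkk4 (1.24, FDR 0.00988) were among them. Transducers and nuclear factors had 4 gained and 1 lost of 16 genes. Of the TCF/LEF factors, Tcf7l2 had 6.92 in Lmna KO and 5.8 in control cells (gained, FDR 1.05e-06), Tcf7l1 gained (1.0, FDR 0.00712) and Lef1 lost (-1.85, FDR 0.00208). Apc, of the beta-catenin destruction complex, gained a site 98.2 kb away (2.2, FDR 0.0114).

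FGF cofactors and transducers had 5 gained and 1 lost of 18 genes in the deposited table. Kl, the co-receptor Klotho (log2 fold 1.66, FDR 1.58e-05), and Sos1 (1.57, FDR 0.0186) gained, and Gab1 lost (-1.47, FDR 0.0261). FGF feedback and target genes had 12 gained and 1 lost of 15 genes, 10 of the gained ones outside chromosome 14. Dusp6, an ERK phosphatase, gained a site 27.5 kb away (1.51, FDR 0.00106) and lost one at 3235 bases (-1.16, FDR 0.0238). Spry4, a feedback inhibitor, gained at its promoter (0.63, FDR 0.00544), and its relative Spry2 lies on distal chromosome 14 (1.89, FDR 3.9e-69). All these counts stand beside 28.8% of genes gained and 7.19% lost over the table, and genes with more listed peaks have more chances of a call. After centring at 0.43, FGF feedback genes had a gained peak at 2 genes, Spry2 and Dusp6, and a lost one at 5. The BMP and TGF-beta inhibitors then had 2 gained and 1 lost gene, and lost genes outnumbered gained ones in the 3 Wnt lists, the BMP and TGF-beta receptors and the FGF cofactors. Centring had the same effect over the table, with 7.16% of all listed peaks lost and 5.02% gained. Outside chromosome 14 these shares were 7.73% and 2.4%. Centred shares by gene over the table were not computed.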

How the data were processed

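Tools listed in the submitters' processing notes are MACS2, Bowtie2, ChIPseeker, Trimmomatic 0.39, DESeq2, SAMtools, bedtools 2.28.0, deepTools, Picard 1.119 and DiffBind, with mm10 as the build. Their order and settings, the handling of Tn5 offsets and the normalization between libraries were not given in the sources used here. The deposited log2 concentrations and log2 folds and the deposited p-values and FDR are the authors' own. The fold equalled Lmna KO minus control within 0.01. The table lists 65535 peaks with p up to 0.422. FDR times rank over p implies about 99065 tested peaks, so the others are not analysed here and medians cover listed peaks only.

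Members were found by symbol and their calls taken at an FDR of 0.05. In the retest, 0.43 was subtracted from each fold, standard errors came from the deposited p under a normal test, peaks not listed were held at a p of 1, and p-values were adjusted over all tested peaks by Benjamini-Hochberg. The code of this step was tested on simulated data, which does not test the normal assumption. Every member gene with a called peak was named with its peak of smallest FDR. The members, lists and rules were chosen with earlier results of these data known. Some genes that the naming rule picks from the lists are not reported here. Each printed promoter window lies wholly inside its called peak. No window is printed for Bmp7 and Wnt3a, whose promoter peaks were also called gained. Values were computed with pandas 2.3.3, numpy 2.4.6 and SciPy 1.17.1 on Python 3.11.15, and drawn with matplotlib 3.10.9.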

Additional observations from a re-analysis of the deposited data

How the results depend on the processing

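No paired analysis was possible because only the means of each group are in the deposited table, and for the same reason no library could be left out and no count model was fitted. Calling at an FDR of 0.01 gave 45 gained and 2 lost member peaks, at 9 and 2 genes, with 36 gained at FGF ligands, 1 at Wnt and Frizzled genes, 0 at FGF receptors and 5 at promoters. Asking also for an absolute log2 fold of 1 or more, 7 BMP and 4 promoter peaks were gained. At or above the median concentration there were 53 gained and 1 lost peak (1 gene lost), with 38 gained at FGF ligands and 3 at Wnt and Frizzled genes. Centred and retested, 30 were gained and 19 lost, at 6 and 13 genes, with 26 gained at FGF ligands, 3 at BMP, 1 at Wnt and Frizzled genes, 0 at FGF receptors and 3 at promoters. Within 50000 bases of a TSS there were 34 gained and 4 lost peaks (4 genes lost), with 19 gained at FGF ligands. Without chromosome 14 there were 24 gained, 7 of them at FGF ligands and 5 at promoters. Without Fgf14, and likewise without chromosome 14 beyond 75 Mb, both chosen after seeing the data, 28 were gained, 9 of them at FGF ligands. Leaving out matched symbols that are no family member moved no family count by over 1.5 times. The cause of these changes was not tested, except that stricter limits and smaller sets leave fewer peaks to call.

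With group means alone, the spread between the libraries of a group, a single library that decides a call and the depth behind a value cannot be seen. All 7 losses have a mean log2 concentration of at most 4.19, a mean that the loss itself lowers. In control cells they had a median of 4.16 and at most 4.68, against a median of 4.24 for gained peaks outside Fgf14. Peaks that are not listed enter no count or median. A peak is given to the nearest TSS, and 49 of the 87 called peaks lie more than 50000 bases from theirs. Most of these 49 are peaks of Fgf14. Of all 334 listed member peaks, 122 lie that far away.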
